A study of Sus scrofa with 4 samples.

Results

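The protein genes of the mitochondrial ribosome were examined in muscle biopsies of pigs (Sus scrofa). They were found by symbol, as every gene named MRPL (large subunit) or MRPS (small subunit) followed by a number and an optional letter A, B or C. The rule found 77 genes of 29692 symbols, 48 for the large and 29 for the small subunit, each with a single row in the deposited table. Muscle was taken by biopsy from animals of the Hampshire breed (2 libraries) and of the Mali breed (2 libraries), which the series describes as differing in muscularity. No treatment, age, sex or muscle is given in the labels, and they do not say whether the libraries of a breed came from separate pigs, so the p-values refer to the spread among these libraries, which may be technical. The comparison asks how the muscle transcriptome differs between the breeds. Values are FPKM, fragment counts divided by transcript length and by library size, so levels can be compared between genes per length.

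The mitochondrial ribosome translates the few messenger RNAs of the mitochondrial genome, all of which encode core subunits of the respiratory chain and ATP synthase. Its ribosomal RNAs come from the mitochondrial genome, whereas its proteins are encoded in the nucleus, made in the cytosol and imported. The small subunit binds and decodes the messenger RNA, and the large subunit joins the amino acids and passes the new protein to the inner membrane. Many of the proteins have a bacterial counterpart, and the rest are found in mitochondria only. Muscle fibres are rich in mitochondria and depend on this machinery for respiration.

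The tissue label was checked with skeletal muscle markers. Of 10 listed, 9 were in the table and all 9 reached 1 FPKM in at least 2 libraries, with alpha-actin (ACTA1) at 40576 and 46329 FPKM in Hampshire against 20637 and 25480 FPKM in Mali. The share of the FPKM sum held by mitochondrial genome genes was 42.5% and 21.3% in Hampshire replicates 1 and 2, against 19.4% and 17.1% in Mali replicates 1 and 2. The median gene tested measured 5.43 and 5.32 FPKM in Hampshire, against 5.72 and 5.76 FPKM in Mali. The depth of each library is unknown, since counts are not part of the table, and intervals that need it are not given. In bulk muscle, fewer cells of a type and less RNA per cell cannot be told apart.

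All 77 genes were expressed in all 4 libraries, the lowest single value being 2.57 FPKM (MRPS30 in Hampshire replicate 2). All 77 therefore passed the filter of at least 1 FPKM in at least 2 libraries. Means over the 4 libraries ran 25.4-fold, with 13 genes below 10 FPKM, 56 between 10 and 50 FPKM and 8 above 50 FPKM. The median of these means was 24.5 FPKM over the members and 5.78 FPKM over all 10075 genes tested, and 74 of the 77 lay above the median of all genes. The proteins occur in fixed numbers in the assembled ribosome, most of them in a single copy, yet their transcripts were not at equal levels.

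**Figure D1:**
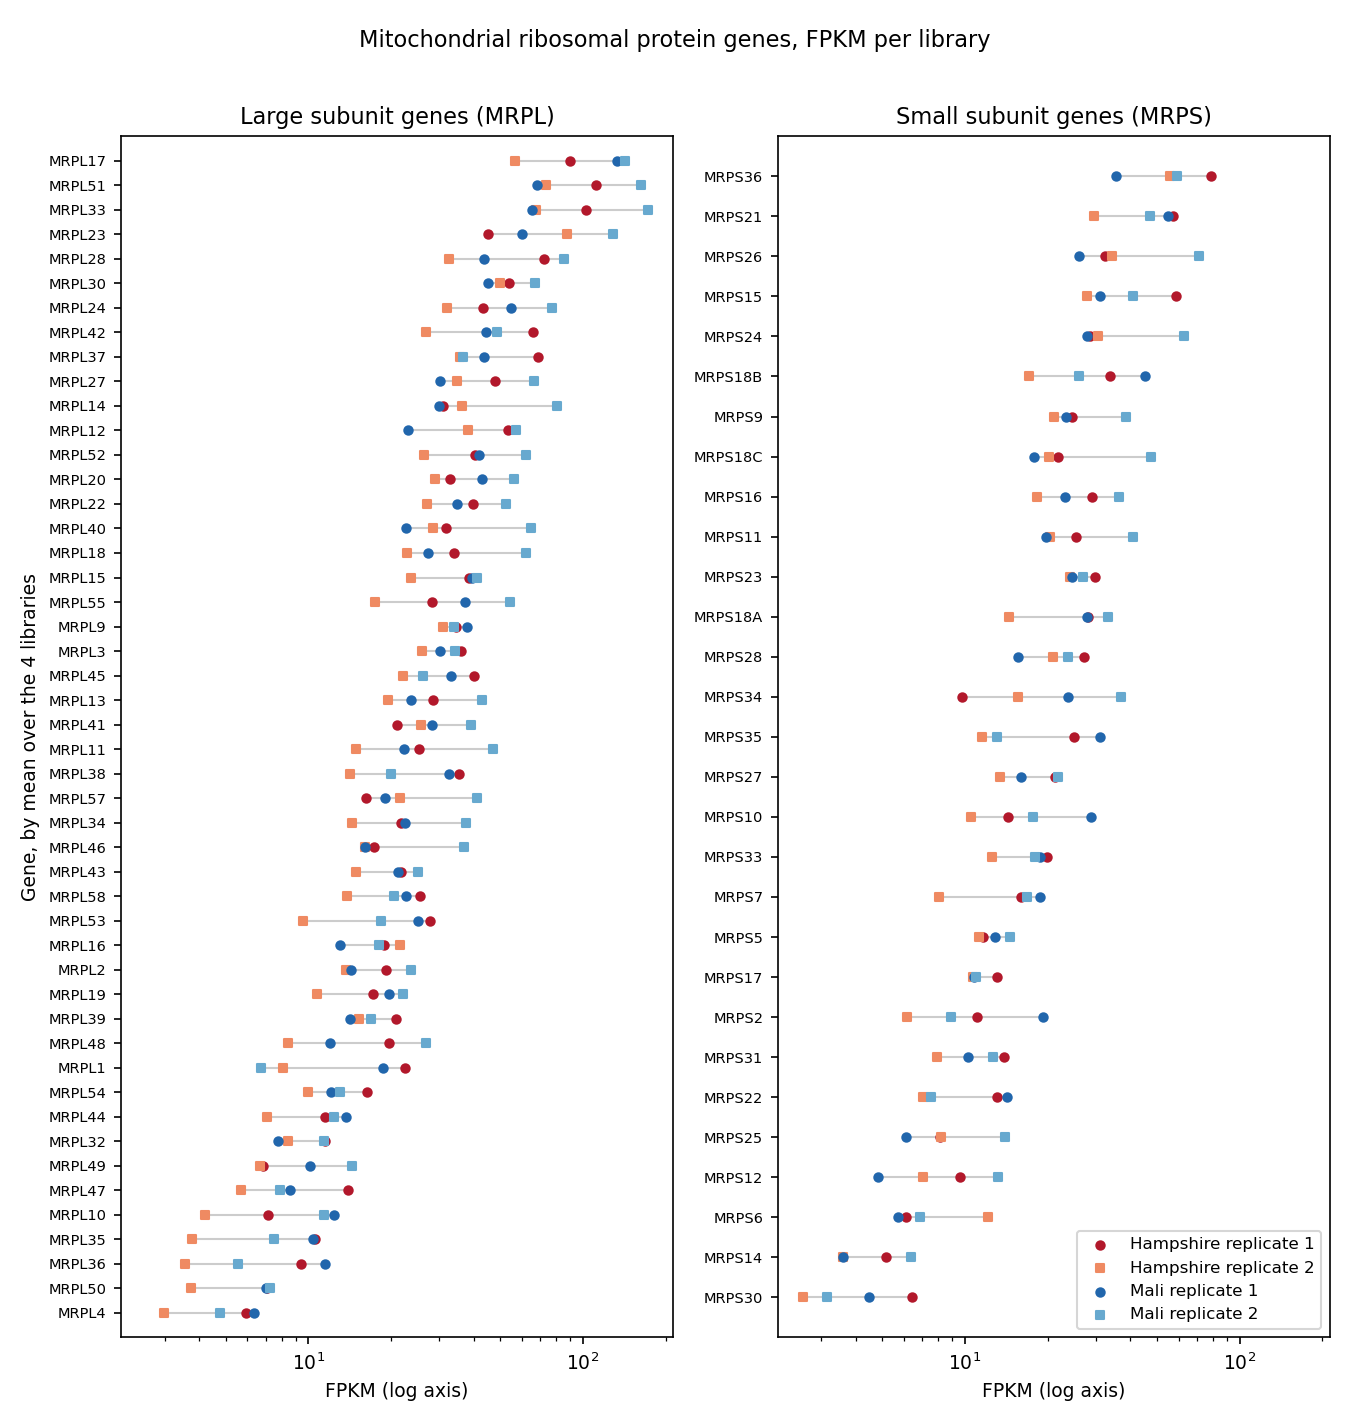
FPKM on a log axis for each of the 77 genes, ordered by mean over the 4 libraries, with large subunit genes on the left and small subunit genes on the right. Each point is 1 library and the grey line joins the lowest and highest. Hampshire replicate 2 (orange squares) was the lowest library for 52 genes (67.5%), against 32.9% of all genes tested. Mali replicate 2 (light blue squares) was the highest for 42 (54.5%), against 33.3%. The highest library depends on the scaling. With FPKM rescaled to a common sum, the median of the 77 genes was 33.6 in Mali replicate 1 and 23.1 in Mali replicate 2.

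The highest levels belonged to large subunit genes. MRPL17, the counterpart of bacterial L17, measured 90.0 and 56.5 FPKM in Hampshire against 133 and 142 FPKM in Mali. MRPL51, a protein found in mitochondria only, measured 111 and 73.3 FPKM in Hampshire against 67.8 and 162 FPKM in Mali. MRPL33, the counterpart of bacterial L33, measured 103 and 67.2 FPKM in Hampshire against 65.1 and 173 FPKM in Mali. These 3 genes held 13.3% and 12.3% of the summed FPKM of the members in Hampshire and 13.2% and 16.3% in Mali. For MRPL17 both Hampshire libraries lay below both Mali libraries, whereas for MRPL51 and MRPL33 the breeds overlapped, with Mali replicate 2 highest and Mali replicate 1 lowest. MRPL17 overlaps an uncharacterised gene on the other strand, and the sources used here do not give the strand setting. Overlap was taken from gene spans without comparing exons, so it is not known whether reads of overlapping genes were told apart. The same holds for 25 of the 77 genes, which overlap another listed gene on either strand.

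The highest of the MRPS genes was MRPS36, at 78.8 and 55.6 FPKM in Hampshire against 35.6 and 59.2 FPKM in Mali. Its product is now known as a subunit of the 2-oxoglutarate dehydrogenase complex of the tricarboxylic acid cycle, not of the ribosome, so it is a member by symbol only. MRPS21, the counterpart of bacterial S21, measured 57.4 and 29.6 FPKM in Hampshire against 54.8 and 47.3 FPKM in Mali. MRPS26, a mitochondria-specific protein, measured 32.3 and 34.3 FPKM in Hampshire against 25.96 and 71.2 FPKM in Mali, and it overlaps GNRH2 on the same strand. The breeds overlapped for all 3 of these genes.

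At the other end, MRPL4, the counterpart of a bacterial protein that lines the exit tunnel, measured 5.92 and 2.99 FPKM in Hampshire against 6.34 and 4.78 FPKM in Mali. MRPL50, which is mitochondria-specific, measured 7.10 and 3.74 FPKM in Hampshire against 7.01 and 7.28 FPKM in Mali. MRPS14, the counterpart of bacterial S14, measured 5.17 and 3.59 FPKM in Hampshire against 3.61 and 6.36 FPKM in Mali. MRPS30 was the lowest of all 77, at 6.41 and 2.57 FPKM in Hampshire against 4.48 and 3.14 FPKM in Mali. The breeds overlapped for all 4 genes, and Hampshire replicate 2 was the lowest library for each.

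The highest genes held their places in every library, whereas others moved. MRPL51 ranked between 1 and 2 of 77, MRPL33 between 1 and 3 and MRPL17 between 1 and 4 in all 4 libraries. MRPL23 ranked 13 and 1 in Hampshire against 4 and 4 in Mali, MRPL37 ranked 6 and 9 in Hampshire against 11 and 34 in Mali, and MRPS18B ranked 23 and 38 in Hampshire against 7 and 42 in Mali. Across the 77 genes, which are not independent replicates, the Pearson correlation of log2(FPKM + 1) was 0.891 between Hampshire replicate 1 and Mali replicate 1 and 0.925 between Hampshire replicate 2 and Mali replicate 2. It was 0.885 between the Hampshire libraries and 0.828 between the Mali libraries. Libraries of different breeds were thus closer than libraries of 1 breed when they shared the form of their title, which is a breed code with no number for replicates 1 and with the number 1 for replicates 2. Over all genes tested the same correlations were 0.930 and 0.936 between breeds and 0.938 and 0.916 within Hampshire and within Mali. The labels do not say what the number marks. The highest library exceeded the lowest by a median factor of 2.22 per gene, and the factor ran from 1.22 for MRPL9 to 3.79 for MRPS34; MRPL9 was named after its values were seen. It measured 34.5 and 31.0 FPKM in Hampshire against 37.7 and 33.9 FPKM in Mali.

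Large subunit genes were higher per gene than small subunit genes in every library. The mean per gene was 33.3 and 23.4 FPKM in Hampshire and 29.4 and 44.8 FPKM in Mali for the large subunit. For the small subunit it was 23.4 and 16.6 FPKM in Hampshire and 20.7 and 26.8 FPKM in Mali. The ratio of large to small was 1.42 and 1.41 in Hampshire and 1.42 and 1.67 in Mali. Mali replicate 2 stood apart from the other libraries, and the mean ratio was 1.41 ± 0.0107 for Hampshire against 1.55 ± 0.178 for Mali (SD, 2 libraries each). The ratio of the medians was less even, at 1.32 and 1.54 in Hampshire and at 1.21 and 1.67 in Mali. No p-value is given for these scores, because the genes were chosen with earlier results of these data known.

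**Figure D2:**
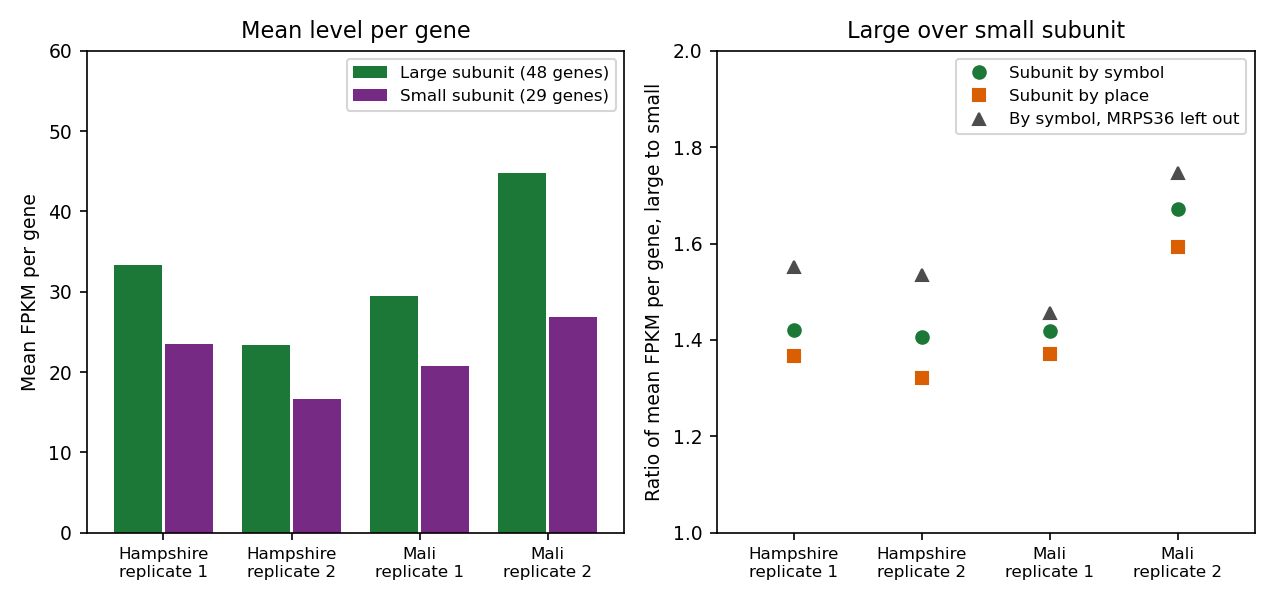
Left, mean FPKM per gene in each library for the 48 large and 29 small subunit genes. Right, the ratio of large to small in each library, with subunits by symbol, by place of the protein, and by symbol with MRPS36 left out. The grouping by place keeps MRPS36 in the small subunit. The ratio by symbol was 1.42 and 1.41 in Hampshire and 1.42 and 1.67 in Mali.

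Symbols and places differ for a pair of genes. The products of MRPS30 and MRPS18A carry small subunit names but sit in the large subunit of the mammalian ribosome. With both moved, there were 50 large and 27 small subunit genes, and the ratio was 1.37 and 1.32 in Hampshire and 1.37 and 1.59 in Mali. In this grouping by place MRPS36 was still counted with the small subunit, although its product is not of the ribosome. Without MRPS36, and with subunits by symbol, it was 1.55 and 1.53 in Hampshire and 1.46 and 1.75 in Mali. The ratio was above 1 and highest in Mali replicate 2 under all 3 groupings.

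No gene of the mitochondrial ribosome passed the test of the breed difference. Values were compared as log2(FPKM + 1) with limma, a linear model that pools variance across genes, with Benjamini-Hochberg adjustment over all genes tested and a threshold of 0.05. None of the 77 was called, against 0 of 10075 genes (0%), and the lowest adjusted p among the 77 was 0.697 (limma). At an unadjusted p under 0.05 there were 2 of the 77 (2.6%), against 7.09% of all genes tested. Both were lower in Hampshire, as were 2.8% of all genes, and none of the 77 was higher, against 4.29% of all genes. With a term for the title number, limma called 261 of the 10075 genes (2.59%), but still 0 of the 77. That fit has 1 residual degree of freedom per gene and 27.4 from the pooled variance, against 2 and 5.24 with breed alone. Its p-values, here and below, thus rest mostly on the pooled variance, and the labels do not say what the number marks. The unadjusted p in that fit was under 0.05 for 2 of the 77 (2.6%), against 11.7% of all genes tested. Standard errors of the 77 log2 differences ran from 0.38 to 0.63, so differences of the size seen here were mostly within the spread between libraries. A p that misses the threshold does not show that the breeds are alike.

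As a description, the genes of the mitochondrial ribosome leaned to lower values in Hampshire. The log2 difference, Hampshire minus Mali, was below 0 for 60 of 77 genes, against 60.5% of all genes tested, and its median was -0.32, against -0.12 over all genes. It ran from -1.20 (MRPS34) to 0.52 (MRPS36). With size factors the medians were -0.20 for the members and -0.01 for all genes. With quantile normalization they were -0.07 and -0.05, so the members hardly stood apart under that scaling. In the deposited values the median was -0.37 for the large subunit, with 39 of 48 genes below 0, and -0.23 for the small subunit, with 21 of 29. Both Hampshire libraries lay below both Mali libraries for 16 of the 77 genes (20.8%), which is near the 23.6% of all genes tested. The opposite held for 1 of the 77, MRPL16, against 13% of all genes. With size factors it held for 6 of the 77, against 16.8% of all genes, and with quantile normalization for 8, against 15.2%.

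The lower values lay mainly in the comparison of the libraries with the number 1 in their titles. Between Hampshire replicate 2 and Mali replicate 2, 74 of 77 genes were lower in Hampshire, against 60.9% of all genes tested, with a median log2 difference of -0.74. Between Hampshire replicate 1 and Mali replicate 1, only 25 of 77 were lower in Hampshire, against 54% of all genes, with a median of 0.16. For 49 genes the difference was positive between replicates 1 and negative between replicates 2, which was so for 25.5% of all genes. All 25 genes that were lower in Hampshire between replicates 1 were also lower between replicates 2. Without Hampshire replicate 2, the median breed difference over the members was -0.020 and 40 genes were below 0, and without Mali replicate 2 the values were -0.036 and 40. Without Hampshire replicate 1 they were -0.51 and 72, and without Mali replicate 1 they were -0.45 and 61. Summed over the 77 genes, the FPKM were 2279 and 1606 in Hampshire and 2014 and 2928 in Mali. The sums over all genes were unequal too, at 988614 and 756253 in Hampshire and 516463 and 894809 in Mali. Of the sum without the mitochondrial genome, the members held 0.401% and 0.270% in Hampshire and 0.484% and 0.395% in Mali. By that share Mali replicate 1 was the highest library.

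**Figure D3:**
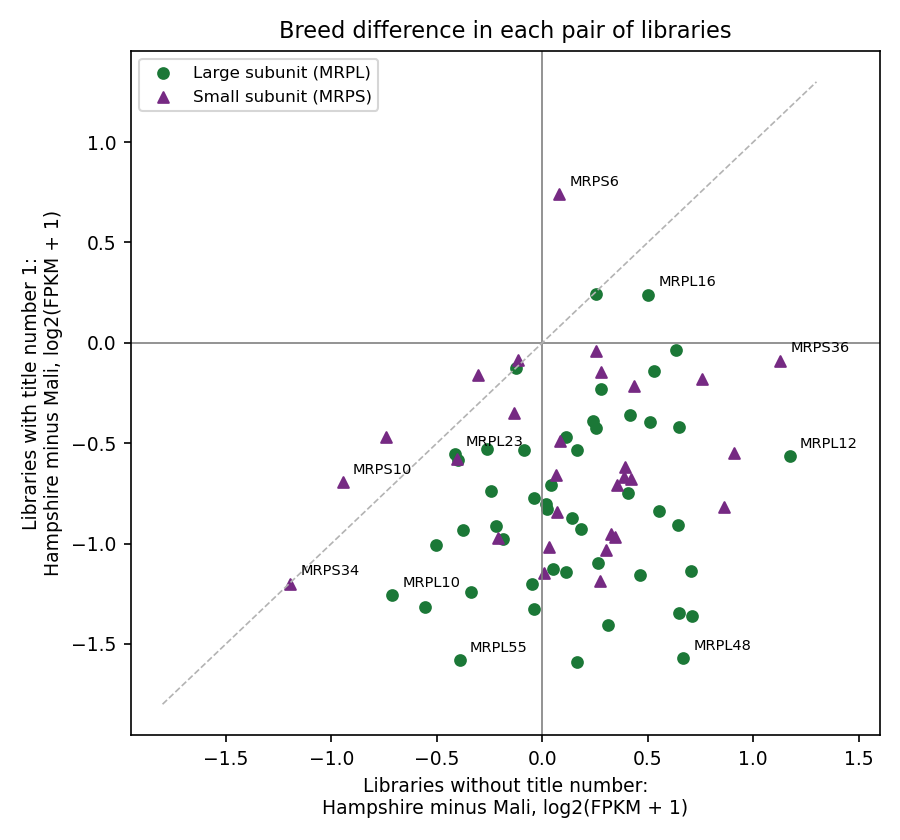
Difference in log2(FPKM + 1), Hampshire minus Mali, for each of the 77 genes between the libraries without a title number (x axis) and those with the number 1 (y axis). Grey lines mark 0 and the dashed line marks equal differences; 74 genes lie below 0 on the y axis and 25 lie below 0 on the x axis.

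The sign between replicates 1 depended on the scaling. With FPKM rescaled to a common sum per library, the median over the members was -0.73 between replicates 1 and -0.51 between replicates 2, where the medians over all genes were -0.80 and 0.02. Without the mitochondrial genome in that sum, they were -0.27 and -0.44 for the members and -0.42 and 0.08 for all genes. Relative to the median of all genes, the median of the members differed by 0.07 to 0.23 between replicates 1 and by -0.56 to -0.30 between replicates 2 under the 5 scalings tried. The rescaling to a common sum moved the breed difference of all genes to a median of -0.40 and that of the members to -0.67. Hampshire then lay below Mali in every library for 47 of the 77 genes (34.9% of all genes tested). This count was 11 with size factors (17%) and 11 with quantile normalization (19.7%). With the common sum no member was called either, the lowest adjusted p in limma being 0.33.

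Markers of other cell types were also unequal among the libraries. The 6 fibroblast markers, all of them in the table, summed to 469 and 1408 FPKM in Hampshire against 103 and 331 FPKM in Mali. Of this, COL3A1 held 191 and 722 FPKM in Hampshire against 15.6 and 73.6 FPKM in Mali. The breeds overlapped for DCN and PDGFRA of this list. The 6 adipocyte markers summed to 119 and 387 FPKM in Hampshire against 129 and 105 FPKM in Mali. Of this, FABP4 held 70.1 and 273 FPKM in Hampshire against 108 and 71.3 FPKM in Mali. Of the adipocyte markers tested, only LPL had no overlap between the breeds. Markers of skeletal muscle fibres summed to 132456 and 148559 FPKM in Hampshire against 71027 and 162030 FPKM in Mali. The 3 red blood cell markers in the table summed to 2570 and 3775 FPKM in Hampshire against 89.9 and 5514 FPKM in Mali, and HBB made up most of each sum. Endothelial markers (6 of 6 in the table) summed to 39.9 and 94.9 FPKM in Hampshire against 43.0 and 50.9 FPKM in Mali, and leukocyte and macrophage markers (7 of 7) to 20.9 and 30.5 FPKM in Hampshire against 11.3 and 9.20 FPKM in Mali. Smooth muscle markers (5 of 5) summed to 4185 and 2322 FPKM in Hampshire against 4254 and 4005 FPKM in Mali, but most of each sum was desmin (DES), which skeletal muscle fibres also express, at 4058 and 2257 FPKM in Hampshire against 4160 and 3958 FPKM in Mali. CNN1, a calponin of smooth muscle, measured 42.2 and 26.8 FPKM in Hampshire against 5.599 and 7.42 FPKM in Mali. Its adjusted p was 0.417 in limma and 0.00356 with a term for the title number, where 1 residual degree of freedom is left. The other smooth muscle markers did not follow CNN1, and the breeds overlapped for each. TAGLN measured 40.8 and 20.0 FPKM in Hampshire against 60.1 and 24.8 FPKM in Mali. For ACTA2 the values were 40.5 and 16.9 FPKM against 25.4 and 13.9 FPKM, and for MYH11 3.62 and 1.43 FPKM against 2.82 and 1.10 FPKM. Skin markers (4 of 5 in the table) summed to 0.985 and 1.08 FPKM in Hampshire against 1.04 and 19.9 FPKM in Mali, with LOR at 0 in all libraries. Their part in the values of the ribosomal genes was not tested.

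Among genes with the lowest p in the direction lower in Hampshire, MRPS34 stood first. MRPS34 is a mitochondria-specific protein of the small subunit whose loss in humans causes a mitochondrial disease (chromosome 3, 40194078 to 40195316, Sscrofa11.1). It measured 9.76 and 15.6 FPKM in Hampshire against 23.6 and 37.0 FPKM in Mali, so the breeds did not overlap. Its log2 difference was -1.20 ± 0.46 (SE), with an adjusted p of 0.697 in limma and 0.220 with a term for the title number. The difference was the same in size between replicates 1 (-1.20) and between replicates 2 (-1.20).

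MRPL10 anchors the flexible stalk of the large subunit, through which translation factors are recruited (chromosome 12, 24076484 to 24083086). It measured 7.16 and 4.19 FPKM in Hampshire against 12.4 and 11.4 FPKM in Mali, with a log2 difference of -0.99 ± 0.40 (SE) and an adjusted p of 0.697 in limma. MRPL12, the protein of the stalk itself, which is present in several copies and is also known to bind the mitochondrial RNA polymerase, measured 53.3 and 38.2 FPKM in Hampshire against 23.1 and 57.0 FPKM in Mali, a log2 difference of 0.30 ± 0.56 (SE) with overlap between the breeds, and it was -0.032 once FPKM were rescaled to a common sum. Between replicates 1 it was the member with the largest positive difference, at 1.17, and between replicates 2 it was -0.57.

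MRPL55, the counterpart of bacterial L31, measured 28.2 and 17.5 FPKM in Hampshire against 37.3 and 54.3 FPKM in Mali, a log2 difference of -0.99 ± 0.47 (SE). MRPL49, a mitochondria-specific protein, measured 6.85 and 6.67 FPKM in Hampshire against 10.1 and 14.4 FPKM in Mali, and it overlaps FAU and SYVN1 on the other strand. MRPS10, the counterpart of bacterial S10, measured 14.4 and 10.5 FPKM in Hampshire against 28.7 and 17.7 FPKM in Mali. For these 3 genes, as for MRPL17, both Hampshire libraries lay below both Mali libraries, and the difference was below 0 between replicates 1 and between replicates 2. Their adjusted p ran from 0.775 to 0.817 in limma.

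**Figure D4:**
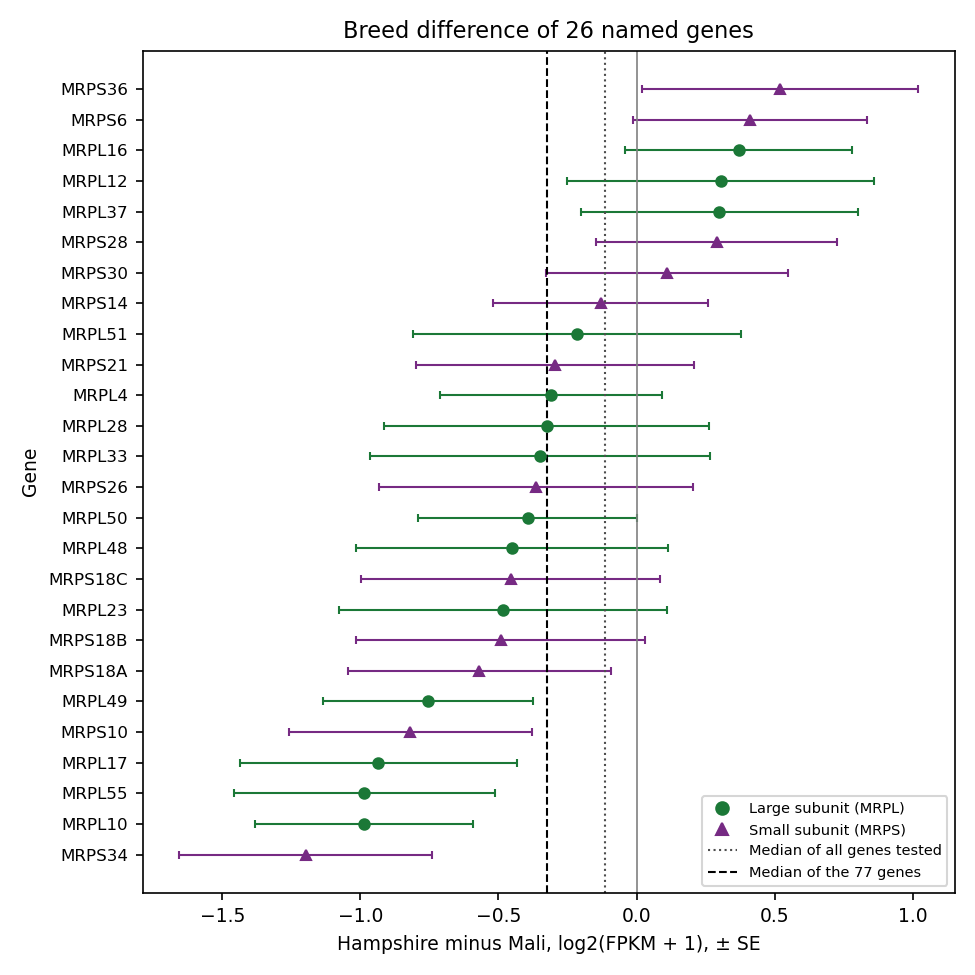
Log2 difference, Hampshire minus Mali, with its standard error from limma for 26 named genes, ordered by value. The dashed line is the median of the 77 genes (-0.32) and the dotted line that of all genes tested (-0.12); the values run from -1.20 for MRPS34 to 0.52 for MRPS36.

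In the direction higher in Hampshire, MRPS36 had a log2 difference of 0.52 ± 0.50 (SE), which was 1.13 between replicates 1 and -0.09 between replicates 2. MRPS6, the counterpart of bacterial S6, measured 6.11 and 12.1 FPKM in Hampshire against 5.72 and 6.86 FPKM in Mali. Its value rests on Hampshire replicate 2, without which the log2 difference was -0.032. The span of MRPS6 overlaps that of SLC5A3 on the same strand, and it is not known whether reads of both genes were told apart. MRPL16, the counterpart of a bacterial protein near the peptidyl transferase centre, measured 18.8 and 21.6 FPKM in Hampshire against 13.0 and 18.2 FPKM in Mali, without overlap.

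MRPL37, a mitochondria-specific protein of the large subunit, measured 68.3 and 35.5 FPKM in Hampshire against 43.7 and 36.4 FPKM in Mali. MRPS28, the counterpart of bacterial S1, measured 27.1 and 20.9 FPKM in Hampshire against 15.6 and 23.8 FPKM in Mali. The breeds overlapped for both, and their log2 differences of 0.30 and 0.29 were -0.042 and -0.041 once FPKM were rescaled to a common sum. Adjusted p of the 6 genes with the lowest p in this direction ran from 0.918 to 0.969 in limma.

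The 2 genes with the largest gap between the difference of replicates 1 and that of replicates 2 were MRPL48, a mitochondria-specific protein, and MRPL28, the counterpart of bacterial L28. MRPL48 measured 19.7 and 8.40 FPKM in Hampshire against 12.03 and 26.9 FPKM in Mali, so its difference was 0.67 between replicates 1 and -1.57 between replicates 2. MRPL28 measured 72.3 and 32.6 FPKM in Hampshire against 43.8 and 85.1 FPKM in Mali, with differences of 0.71 and -1.36. MRPL28 overlaps TMEM8A on the same strand. The gap between the 2 differences was over 1 for 33 of the 77 genes, against 15.6% of all genes tested.

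MRPS18A, MRPS18B and MRPS18C are 3 paralogs related to bacterial S18, of which the first sits in the large subunit and the others in the small subunit. MRPS18A measured 28.0 and 14.4 FPKM in Hampshire against 27.9 and 33.2 FPKM in Mali. MRPS18B measured 33.8 and 17.1 FPKM in Hampshire against 45.1 and 26.1 FPKM in Mali. MRPS18C measured 21.8 and 20.3 FPKM in Hampshire against 17.9 and 47.4 FPKM in Mali. Their log2 differences were close, at -0.57 ± 0.48, -0.49 ± 0.52 and -0.46 ± 0.54 (SE), and all had overlap between the breeds. The copies parted between Mali libraries, where MRPS18B was higher in replicate 1 and MRPS18C in replicate 2. MRPS18B and MRPS18C overlap genes on the other strand, and the sources used here do not say how reads that match several copies were counted.

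Grouped by descent, 45 genes have a bacterial counterpart and 31 are mitochondria-specific, with MRPS36 in neither. The median log2 difference was -0.35 for genes with a bacterial counterpart and -0.23 for mitochondria-specific genes, against -0.12 for all genes tested. Between replicates 1, 16 of 45 genes with a bacterial counterpart and 9 of 31 mitochondria-specific genes were lower in Hampshire, with medians of 0.17 and 0.14, against 54% of all genes tested. Between replicates 2 the counts were 42 of 45 and 31 of 31, with medians of -0.82 and -0.71, against 60.9% of all genes. The difference between these groups was not tested.

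MRPL23 encodes the protein at the mouth of the exit tunnel and lies 112644 bases from the growth factor gene IGF2 on chromosome 2 (1346864 to 1356539 on the forward strand, against 1469183 to 1496417 on the reverse strand for IGF2). It measured 45.0 and 87.5 FPKM in Hampshire against 60.2 and 129 FPKM in Mali, with overlap between the breeds and a log2 difference of -0.48 ± 0.59 (SE). IGF2 measured 135 and 259 FPKM in Hampshire against 9.88 and 26.4 FPKM in Mali, a log2 difference of 3.45 ± 0.62 (SE). The fast troponin gene TNNT3, on the other side of MRPL23 at 29999 bases, measured 8280 and 12867 FPKM in Hampshire against 4582 and 20441 FPKM in Mali. All 3 genes were higher in replicate 2 than in replicate 1 of each breed. The adjusted p in limma was 0.943 for MRPL23, 0.992 for TNNT3 and 0.417 for IGF2, and with a term for the title number it was 0.853, 0.988 and 3.37e-04.

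Many of the genes start back to back with a neighbour. For 22 of the 77 (28.6%), the start of a gene on the other strand lay upstream within 500 bases, against 16% of all genes tested. The following genes were picked for these positions after their values were seen. MRPS11, the counterpart of bacterial S11, and MRPL46, a mitochondria-specific large subunit gene, start 39 bases apart on chromosome 1. MRPS11 measured 25.3 and 20.5 FPKM in Hampshire against 19.7 and 40.9 FPKM in Mali, and MRPL46 measured 17.4 and 16.1 FPKM in Hampshire against 16.03 and 36.8 FPKM in Mali. Mali replicate 2 was the highest library for both.

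Other neighbours of this kind were SARS2, a mitochondrial tRNA ligase, 124 bases from MRPS12, and NDUFB5, a subunit of respiratory complex I, 23 bases from MRPL47. IMMT, which shapes the inner membrane, lay 65 bases from MRPL35, the proteasome gene PSMA2 lay 108 bases from MRPL32, and the chaperonin gene TCP1 lay 103 bases from MRPL18. The file gives MRPS12 as a long non-coding RNA gene, at 9.56 and 7.04 FPKM in Hampshire against 4.81 and 13.2 FPKM in Mali. Counting MRPS11 and MRPL46 on both sides, 16 partners were expressed enough to be tested. Of these, 6 were lower in Hampshire between replicates 1, against 54% of all genes tested, and 15 between replicates 2, against 60.9% of all genes. No partner passed the test in limma, and the differences share the same libraries.

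Other genes of mitochondrial translation gave no call either. In these lists the number listed counts symbols, which can include several names of the same gene. Mitoribosomal proteins with other symbols had 5 tested of 6 listed, and a median log2 difference of -0.50. Of these 5, 1 was lower in Hampshire between replicates 1 and 5 between replicates 2, against 54% and 60.9% of all genes tested. GADD45GIP1, a protein of the large subunit, measured 24.7 and 17.2 FPKM in Hampshire against 22.0 and 42.6 FPKM in Mali, and AURKAIP1, of the small subunit, measured 35.7 and 36.6 FPKM in Hampshire against 38.6 and 72.3 FPKM in Mali. Translation factors had 14 tested of 17 listed, 10 of them below 0, and a median of -0.23, with 6 of 14 lower between replicates 1 and 14 of 14 between replicates 2. MTIF3, an initiation factor, measured 2.76 and 2.46 FPKM in Hampshire against 4.55 and 5.61 FPKM in Mali, and the elongation factor TSFM measured 13.4 and 12.3 FPKM in Hampshire against 17.3 and 20.6 FPKM in Mali, both without overlap.

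Assembly factors of the mitochondrial ribosome had 30 tested of 32 listed, 24 of them below 0, and a median of -0.27, with 14 of 30 lower between replicates 1 and 23 of 30 between replicates 2. METTL17, which acts in assembly of the small subunit, measured 5.80 and 3.36 FPKM in Hampshire against 9.34 and 8.28 FPKM in Mali. MRM2, which methylates the large ribosomal RNA, measured 6.98 and 3.73 FPKM in Hampshire against 7.61 and 11.95 FPKM in Mali. The breeds did not overlap for either gene. Adjusted p in limma were 0.746 for METTL17, 0.826 for MRM2, 0.724 for MTIF3 and 0.882 for TSFM.

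Mitochondrial tRNA ligases, which charge transfer RNAs for the same ribosome, had 18 tested of 20 listed, 11 of them below 0, and a median of -0.06, with 6 of 18 lower between replicates 1 and 14 of 18 between replicates 2. PARS2, the prolyl enzyme, measured 1.29 and 1.10 FPKM in Hampshire against 0.678 and 0.613 FPKM in Mali. It passed the filter of 1 FPKM only through the Hampshire libraries, so its direction was favoured by the filter. LARS2, the leucyl enzyme, measured 3.90 and 2.72 FPKM in Hampshire against 4.51 and 5.25 FPKM in Mali. Genes of mitochondrial transcription and replication had 17 tested of 17 listed, 10 of them below 0, and a median of -0.07, with 8 of 17 lower between replicates 1 and 13 of 17 between replicates 2. TFAM, which packages mitochondrial DNA and starts its transcription, measured 8.58 and 9.25 FPKM in Hampshire against 11.6 and 21.5 FPKM in Mali, whereas GABPB1, a subunit of a nuclear regulator of mitochondrial genes, measured 2.93 and 2.36 FPKM in Hampshire against 1.88 and 1.04 FPKM in Mali. Within these 5 lists, 0 genes passed adjustment in limma in either direction, and 0 had an unadjusted p under 0.05.

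In the authors' deposited table, which gives a p and a q per gene for the same comparison, 0 of the 77 genes had a q under 0.05, against 65 of 30212 rows. The authors' deposited table gave its lowest value among the 77 to MRPS34, with a q of 0.545.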

How the data were processed

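Per the labels' protocols, Trizol was used to extract RNA and a TruSeq kit to prepare libraries. HISAT2, Bowtie 0.12.2, Picard and Cuffdiff are named in the submitters' processing notes, with no role or order. The sources used here do not give the strand setting. What the authors deposited is FPKM per gene and library, a mean FPKM per breed, and a p-value and q-value of their own comparison, per the file headers. Of 30213 rows, 1 without a name was left out, 26 symbols shown as calendar dates were read from the gene ID instead, and rows sharing a symbol were added up. Coordinates are those of the table; all 77 genes matched the RefSeq table of Sscrofa11.1. Sequences were not used here.

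The 10075 genes at 1 FPKM or more in 2 or more libraries were tested on log2(FPKM + 1) values. The two-sided test was that of limma 3.58.1 (R 4.3.3, lmFit, then eBayes with trend), with breed as the only term and Benjamini-Hochberg adjustment. On that log2 scale, made here from the deposited FPKM, differences of low genes are understated. Groups follow the breed in the labels; replicates 1 and 2 are named in accession order.

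The members and lists were chosen with earlier results of these data known. Named genes were the 3 highest and 2 lowest by mean per subunit, the 6 lowest p per direction, the 2 with the largest gap between the differences of replicates 1 and 2, 6 fixed members, and 2 per list by lowest p. Alternatives changed the pseudocount, filter, scaling, variance trend, rows per symbol, library set, block and subunit rule. Figures were drawn with matplotlib 3.10.9.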

Additional observations from a re-analysis of the deposited data

How the results depend on the processing

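No gene of the mitochondrial ribosome was called by limma under any of the other settings run, each changed alone unless 2 are named. Over all genes, where the deposited values gave 0 calls, there was 1 with a mean of at least 5 FPKM, 68 with FPKM rescaled to a common sum, 63 with that sum taken without the mitochondrial genome, 261 with a replicate block by title number and 57 with the block and median-of-ratios size factors. Leaving out each library in turn gave 0 to 7, and the 7 came without Mali replicate 2. For the members, the count at an unadjusted p under 0.05 in limma (2) was 6 and 1 under those common sums. It was 1 with size factors, 0 with quantile normalization and 4 without a variance trend. Shares of all genes are not given for these settings, so the changes are not read as a trait of the members. The count with Hampshire below Mali in every library (16, against 23.6% of all genes) was 47 with a common sum (34.9% of all genes). It was 23 with that sum taken without the mitochondrial genome (19.9%), 11 with size factors (17%) and 11 with quantile normalization (19.7%). With a library left out fewer libraries have to separate, and the count ran from 18 (without Hampshire replicate 2) to 54 (without Hampshire replicate 1). The opposite count (1, against 13% of all genes) was 2 with the common sum without the mitochondrial genome (9.6% of all genes). It was 6 with size factors (16.8%), with or without the block, and 8 with quantile normalization (15.2%). With a library left out it was 2 to 23. Shares of all genes are not given with a library left out, so those counts describe the setting and not the members. The ratio of large to small subunit genes in Hampshire (1.41) was 1.34 with the 5 FPKM filter, 1.34 by place, 1.54 without MRPS36 and 1.37 without members that overlap another gene; these last exclusions were chosen after seeing the data. The cause of these changes was not tested.

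Of 26 named members, 11 kept the sign of their log2 difference throughout. With a common sum it turned to -0.032 for MRPL12, -0.042 for MRPL37, -0.041 for MRPS28 and -0.20 for MRPS30, and with quantile normalization to 0.093 for MRPL51. With a library left out, the ranges that cross 0 were as follows. The log2 difference ran from -0.33 to 0.94 for MRPL12, -1.03 to 0.059 for MRPL23, -0.89 to 0.24 for MRPL28, -1.05 to 0.35 for MRPL33 and -0.16 to 0.76 for MRPL37. It ran from -0.71 to 0.087 for MRPL4, -1.02 to 0.12 for MRPL48, -0.84 to 0.41 for MRPL51, -0.47 to 0.21 for MRPS14 and -1.13 to 0.22 for MRPS18C. The remaining ranges were -0.76 to 0.17 for MRPS21, -1.07 to 0.35 for MRPS26, -0.42 to 0.64 for MRPS30 and -0.032 to 0.85 for MRPS6. The lone library of a breed is then assumed to vary like the others.

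The labels do not establish a pairing by title number. Ratios of low values clustered more between libraries of the same title form, for a reason that was not tested. Among genes under 1 FPKM, 9.83% of ratios between Hampshire replicate 1 and Mali replicate 1 and 4.45% between Hampshire replicate 2 and Mali replicate 2 fell in a single bin of 0.02 (log2), against 1.14% to 1.53% for the other library combinations. With the replicate block, the lowest adjusted p among the members was 0.220 (limma, MRPS34). With 2 libraries a breed and no counts, what sequencing depth limits could not be assessed.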
